A study of Mus musculus with 6 samples.

Results

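In all, 10 genes of the Wnt pathway were followed through the developing mouse retina: the ligand Wnt5a, the ligand carrier Wls, the secreted modulators Sfrp1, Sfrp2 and Dkk3, the receptors Fzd1, Fzd3 and Fzd5, the nuclear factor Lef1 and the response gene Axin2. They were taken by name, 10 of the 27998 genes in the count table, and all 10 had a row. The study profiled single cells of mouse retinas at embryonic day 14 with 10x Genomics 3' v2 chemistry and compared mutants of Atoh7, a transcription factor needed for most retinal ganglion cells, and of Bax, which drives the death of neurons. The 3 genotype groups used had 2 libraries each: Bax null with Atoh7 intact, Bax null Atoh7 null (the double null), and Bax het Atoh7 null, which is heterozygous for Bax. Every group carries a mutation, so no group used here has both genes intact, and all were collected at day 14. The labels do not say whether the 2 libraries of a group came from separate animals, so p-values measure only the spread between these libraries. The deposited labels divide the 67050 cells into 5 types: retinal progenitor cells, neurogenic cells (progenitors leaving the cell cycle), retinal ganglion cells, horizontal cells and cones.

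Wnt ligands are secreted lipid-modified proteins that bind Frizzled receptors. In the canonical branch, binding stabilises beta-catenin, which enters the nucleus and acts with factors of the TCF/LEF family; other branches act through planar polarity or calcium. In the embryonic eye, Wnt signalling is known for its role at the ciliary margin, the rim of the retina that forms iris and ciliary body, while much of the central progenitor pool expresses secreted proteins that bind or modulate Wnts.

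The libraries held 22463515 to 66594431 UMIs (counted RNA molecules), with a median of 1634 to 6804 UMIs per cell. Each library held 5456 to 9507 progenitor, 1663 to 2739 neurogenic, 667 to 1772 ganglion, 285 to 595 horizontal-labelled and 257 to 799 cone cells. Atoh7 had 0 UMIs in the 4 Atoh7 null libraries and 376 and 458 UMIs in the Bax null libraries. Bax stood at 144 and 108 CPM (counts scaled to a common library total) in the Bax het Atoh7 null libraries, at 17.1 and 15.0 in the Bax null libraries, and at 47.7 and 10.996 in the double null libraries, so the first library labelled double null held more Bax RNA than the other Bax null libraries. Within that library Bax was at 16.9 CPM in cells whose barcode was shared with the other double null library and at 51.5 CPM in the rest. The double null libraries shared 2596 cell barcodes, 22.0% of the smaller library, of which 89.4% had the same cell type in both, whereas the 14 other library pairs shared 126 to 223 barcodes with 34.3% to 46.0% of the same type. Results that rest on the double null are therefore also given without those cells where that changes the call.

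The 2 Bax null libraries stood apart from the other 4 in composition. Their TMM normalisation factors (which correct library totals for a shift shared by most genes) were 0.760 to 0.801, against 1.07 to 1.24 in the others. Summed markers of red blood cells reached 583 to 1386 CPM in the Bax null libraries, against 2.42 to 147 elsewhere, and summed neurogenic markers in neurogenic cells were 3278 to 3734 CPM, against 6966 to 8413. Genotype and library preparation cannot be told apart here, and every difference between the Bax null and an Atoh7 null group carries that limit. Cell types matched their own markers, though not exclusively. Cells labelled horizontal also held amacrine markers (Tfap2a, Tfap2b, Tfap2c, Ptf1a and Prdm13), at a summed 1045 to 1628 CPM beside 1196 to 2072 for the horizontal markers. They are called horizontal-labelled cells below. Ganglion cells of the Atoh7 null groups held summed neurogenic markers at 5806 to 6564 CPM, against 1736 to 1778 in the Bax null. Their horizontal markers were at 1157 to 1403 CPM against 514 to 521, and their amacrine markers at 101 to 134 against 12.4 to 13.0. In plain CPM these lists were also higher without Atoh7 in every other type. That scale is not corrected for the shift shared by most genes, and TMM-scaled sums of these lists were not compared.

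Promoters are shown first for Sfrp2 and Fzd5, whose levels differed between genotypes, and for Lef1 and Axin2, which are linked to TCF/LEF. Each is the 250 bases before a RefSeq start site in GRCm38.p6, on the gene's strand. Lef1, a known Wnt target as well as a pathway factor, has 4 start sites in the table, and the first and last are given. They lie at chr3:83766071-83766320 (plus strand) for Sfrp2, chr1:64737751-64738000 (minus strand) for Fzd5, chr3:131110047-131110296 and chr3:131156044-131156293 (plus strand) for the Lef1 sites, and chr11:108920099-108920348 (plus strand) for Axin2. Capitals mark a match to a core TCF/LEF motif.
Sfrp2: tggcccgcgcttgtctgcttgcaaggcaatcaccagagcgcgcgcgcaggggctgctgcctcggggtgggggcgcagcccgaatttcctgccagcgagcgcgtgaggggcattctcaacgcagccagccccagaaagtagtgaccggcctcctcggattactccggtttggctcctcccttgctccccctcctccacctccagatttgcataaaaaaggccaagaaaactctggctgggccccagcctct
Fzd5: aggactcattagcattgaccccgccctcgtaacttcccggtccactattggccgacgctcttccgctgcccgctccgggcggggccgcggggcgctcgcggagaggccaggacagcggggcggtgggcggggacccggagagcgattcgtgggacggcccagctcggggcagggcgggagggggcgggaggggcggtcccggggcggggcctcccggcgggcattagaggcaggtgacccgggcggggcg
Lef1 start site 1: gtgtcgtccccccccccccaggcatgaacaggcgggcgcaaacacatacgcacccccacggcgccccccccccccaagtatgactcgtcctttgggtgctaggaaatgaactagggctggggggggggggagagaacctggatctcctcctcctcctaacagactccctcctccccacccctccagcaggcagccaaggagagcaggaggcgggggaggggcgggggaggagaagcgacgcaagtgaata
Lef1 start site 4: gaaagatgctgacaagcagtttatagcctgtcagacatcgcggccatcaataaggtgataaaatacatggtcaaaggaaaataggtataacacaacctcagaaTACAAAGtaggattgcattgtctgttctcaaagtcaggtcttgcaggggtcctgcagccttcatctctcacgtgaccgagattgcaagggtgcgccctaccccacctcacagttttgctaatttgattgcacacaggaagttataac
Axin2: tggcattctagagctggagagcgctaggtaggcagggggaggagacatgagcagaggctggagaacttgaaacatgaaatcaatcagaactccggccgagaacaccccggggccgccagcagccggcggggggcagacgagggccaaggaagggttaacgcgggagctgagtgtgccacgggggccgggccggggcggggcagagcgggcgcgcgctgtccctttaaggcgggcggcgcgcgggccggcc
The letters searched on both strands were CTTTGAA for the first form of the motif, CTTTGAT for the second, CTTTGTA for the third and CTTTGTT for the last, forms that cannot share a position. Lef1 start site 4 alone of these windows held 1, CTTTGTA on the minus strand at bases -147 to -141 from the start. Of all 32851 promoters in the table, 14.8% held at least 1 match, so a single match is common, and it is a description of these letters only.

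The 10 genes together gave very unequal counts, which sets how precisely each could be compared. Over the 6 libraries, Sfrp2 had 368132 UMIs, Dkk3 98162, Sfrp1 10579, Fzd3 8274, Fzd5 7239, Lef1 2109, Fzd1 1378, Wnt5a 610, Axin2 460 and Wls 167. Levels of one gene were compared between cell types as plain CPM within each library. Levels of different genes were not ranked. The order of types within a gene is a description, without a test, and 4 of the 10 (Sfrp1, Sfrp2, Dkk3 and Wls) were among the 2632 genes that the authors marked for ordering the cells, so the type labels are not independent of them.

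Wnt5a, a ligand best known for non-canonical signalling, lies at chr14:28504750-28527448. It was highest in horizontal-labelled cells, where its level ran from 5.96 to 8.08 CPM over the 6 libraries. In progenitors it ran from 2.42 to 3.94 CPM, below the horizontal range in every library. Ganglion cells had the lowest mean, at 0.286 to 1.57 CPM from 1 to 5 UMIs per library. In cones it was not detected in either double null library, where 0 UMIs were counted, against 2 to 4 UMIs in each of the other 4 libraries.

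Wls, the membrane protein that carries Wnt ligands to the cell surface (chr3:159839672-159938664), was near the detection limit in every type. Progenitors of the Bax null libraries held 31 and 62 of its UMIs, those of the double null 20 and 4, and those of the Bax het Atoh7 null 10 and 1. Of its 167 UMIs, 93 (55.7%) came from 2 clusters of the deposited clustering that together held 247 cells, 0.368% of all cells. Those clusters carry the progenitor label, but pigment-cell genes (Pmel, Dct and Trpm1) are among their leading genes, and they were left unnamed. Bax null replicate 2 alone supplied 35 of the 49 UMIs of cluster 149 and 17 of the 44 of cluster 83.

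Sfrp2, a secreted Frizzled-related protein that binds Wnts outside the cell (chr3:83766321-83774316), was a progenitor gene in all libraries. Its level was 1508 to 3163 CPM in progenitors and 604 to 792 CPM in neurogenic cells, with no overlap. Horizontal-labelled cells (167 to 497 CPM), cones (127 to 413 CPM) and ganglion cells (76.1 to 376 CPM) overlapped one another. Progenitors supplied 88.3% of all its UMIs. Its relative Sfrp1 (chr8:23411502-23449632) was also highest in progenitors, in 6 of 6 libraries, at 42.7 to 78.5 CPM. Ganglion cells had 13.5 to 45.0 CPM and neurogenic cells 22.5 to 29.95 CPM.

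Dkk3, a divergent member of the Dickkopf family of secreted proteins (chr7:112116017-112159057), had no single peak. Progenitors held 271 to 824 CPM and horizontal-labelled cells 279 to 770 CPM, and progenitors were the higher of the pair in 3 of 6 libraries. Neurogenic cells followed at 199 to 565 CPM, then ganglion cells at 50.4 to 224 CPM and cones at 26.3 to 162 CPM. Each step down held within all 6 libraries, although the ranges over libraries overlapped.

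The 3 Frizzled receptors differed in where they were highest. Fzd5, a receptor known for its role in retinal progenitors (chr1:64730558-64737751), stood at 34.6 to 42.9 CPM in progenitors and 14.8 to 24.7 CPM in neurogenic cells, without overlap, and lower in the other 3 types. Fzd1 (chr5:4753839-4758035) was also highest in progenitors, at 6.45 to 9.32 CPM against 3.31 to 4.30 CPM in neurogenic cells, again without overlap. Fzd3, a receptor used in axon guidance and planar polarity (chr14:65192449-65262463), was instead highest in horizontal-labelled cells, at 65.7 to 117 CPM, above its 28.0 to 52.9 CPM in neurogenic cells and 21.9 to 39.9 CPM in progenitors.

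Lef1, the DNA-binding partner of beta-catenin (chr3:131110471-131224356), had an order that depended on genotype. In the 4 Atoh7 null libraries it ran from 11.3 to 14.6 CPM in progenitors and from 2.84 to 3.52 CPM in ganglion cells. In the 2 Bax null libraries, progenitors had 6.998 and 6.19 CPM while ganglion cells had 7.45 and 8.89 CPM. Axin2, a feedback inhibitor widely read as a response gene (chr11:108920349-108950783), had few UMIs. Its mean over libraries was lowest in progenitors, at 1.14 to 1.76 CPM, and highest in cones, at 2.20 to 6.18 CPM, but neighbouring types overlapped: neurogenic cells were above progenitors in 4 of 6 libraries, and cones above horizontal-labelled cells in 4 of 6.

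**Figure D1:**
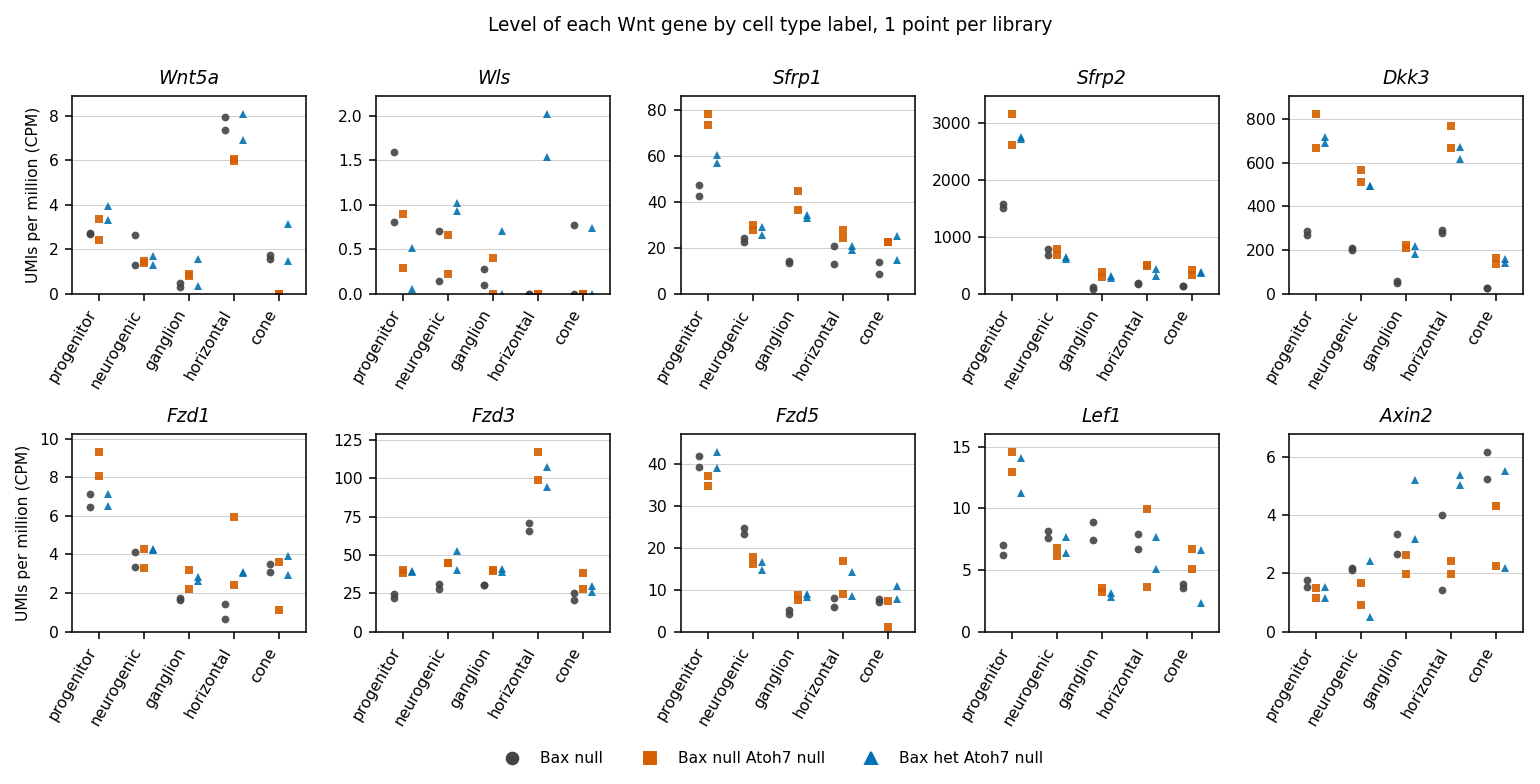
CPM (vertical axes, from 0) of each of the 10 genes by cell type label (horizontal axes), 1 point per library and a colour and shape per genotype group. Sfrp2, Sfrp1, Fzd1 and Fzd5 are highest in progenitors in 6 of 6 libraries, Fzd3 and Wnt5a are highest in horizontal-labelled cells, and Lef1 in ganglion cells is higher in the 2 Bax null libraries than in the other 4.

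Levels over the 30 sums of a library and a type gave the genes most like each member, by Pearson's r of log2(CPM + 1) among 7204 genes. These sums share libraries and depth, so r is a description. Sfrp2 was most like Sparc (0.988), Cp (0.986) and Id2 (0.980), and Fzd5 most like Zfp36l1 (0.909). Sfrp1 was nearest to Fgf9 (0.917), Dkk3 to Immp1l (0.948), Fzd1 to Aldh1a3 (0.912) and Fzd3 to Abat (0.959), with Celsr2, a planar polarity cadherin, next but one for Fzd3 (0.935). Lef1 reached only 0.793 (Mxra7), Wnt5a 0.868 (Fdx1), Axin2 0.725 (Malat1) and Wls 0.536 (Map3k4). Among the members, Sfrp1 with Sfrp2 (0.855), Sfrp2 with Fzd5 (0.851), Sfrp2 with Fzd1 (0.821) and Fzd1 with Fzd5 (0.809) were the closest pairs, while Fzd3 with Sfrp2 was at -0.03.

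Progenitors were not uniform for these genes. Of 84 progenitor clusters, 14 had a summed level of ciliary margin genes (Wfdc1, Otx1, Msx1, Ccnd2, Cdon, Mab21l1 and the ligand Wnt2b) of at least 2 times the median of 204 CPM. The lowest cluster inside that limit had 442 CPM and the highest outside it 360 CPM. The limit was set after seeing the data, the clusters were built from all genes including some of these, and the values are given without a test. These clusters held 9.22% to 14.7% of the progenitors of each library.

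In every library, 6 members were higher in the ciliary-high clusters than in other progenitors. Axin2 stood 4.09 times as high (median over libraries, range 2.30 to 5.55), Fzd1 3.01 times (2.14 to 3.96), Wnt5a 2.38 times (1.94 to 3.98), Sfrp1 2.35 times (1.53 to 2.70) and Lef1 1.96 times (1.66 to 2.63). Wls had 111 of its 128 progenitor UMIs there, and these clusters include both of the pigment-marked clusters described above, which hold 93 of all its UMIs. In every library, 3 members were lower: Sfrp2 at 0.682 times (0.596 to 0.717), Dkk3 at 0.700 times (0.660 to 0.749) and Fzd5 at 0.809 times (0.597 to 0.890). Fzd3 was higher in 3 libraries and lower in 3. Summed over these clusters, the response gene, the nuclear factor and the ligand were thus high where Sfrp2, Dkk3 and Fzd5 were low. Single clusters did not all follow. Ciliary-high cluster 50 had 2518 CPM of Sfrp2, beside a median of 2375 over progenitor clusters of at least 200 cells. Ciliary-high cluster 32 had 0.832 CPM of Axin2, beside a median of 1.15. The Axin2 ratios rest on 5 to 30 UMIs per library inside the ciliary-high clusters.

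**Figure D2:**
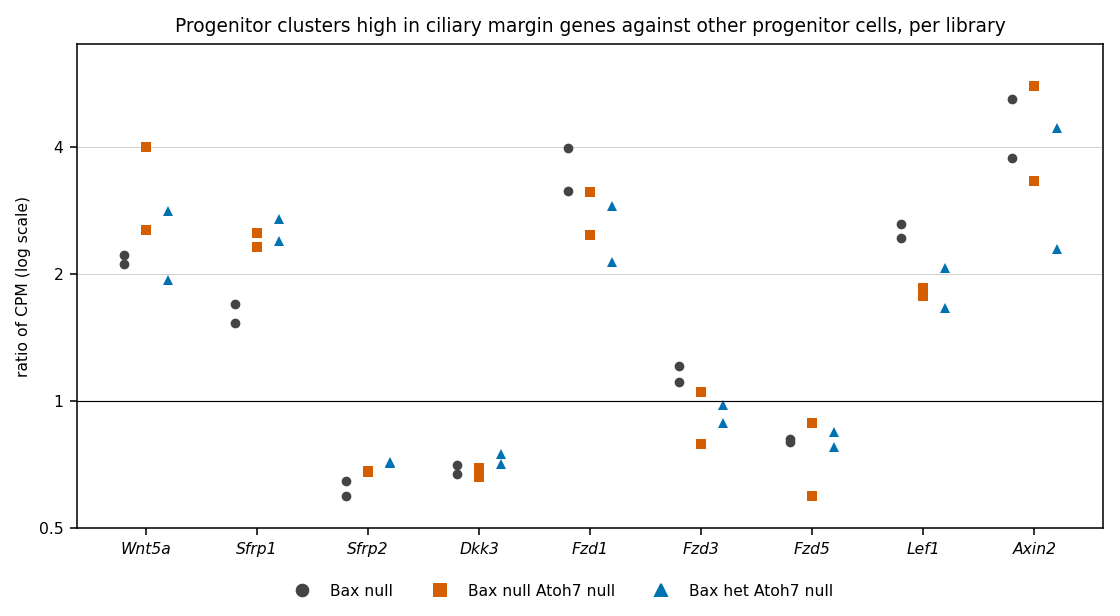
Ratio of CPM in the ciliary-high progenitor clusters to that in other progenitors (vertical axis, log scale) for 9 genes (horizontal axis), 1 point per library and a colour and shape per genotype group; Wls is left out because a library had 0 UMIs outside those clusters. Axin2, Fzd1, Wnt5a, Sfrp1 and Lef1 lie above 1 in all 6 libraries, and Sfrp2, Dkk3 and Fzd5 below 1 in all 6.

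Individual clusters of at least 200 cells showed the same separation for several of these genes, but not for Axin2. Cluster 35, led by Msx1 and Gja1, had the highest Sfrp1 (159 CPM) and Fzd1 (29.6 CPM), and cluster 99, led by Igfbp5 and Msx1, the highest Lef1 (29.1 CPM) and Wnt5a (13.0 CPM). Sfrp2 peaked in cluster 22 (3363 CPM), led by Ndufa4l2 and Espn, and Fzd5 in cluster 54 (60.1 CPM), led by histone genes of replicating cells. Fzd3 was highest in horizontal-labelled cluster 2, at 111 CPM. These values pool libraries, and genotypes differ in level and in their share of each cluster, so the ranking of clusters mixes genotype with cluster. In each of these cases the cluster was above the rest of its type in 6 of 6 libraries. Each cluster was picked as the highest from pooled counts of the same libraries, so that count is not separate support. Some libraries also gave few cells: cluster 22 held 13 and 6 cells of the Bax null libraries. Lef1 in cluster 99 had 1 UMI in 20 cells of Bax null replicate 2. Axin2 was highest in horizontal-labelled cluster 76 (8.56 CPM, 8 UMIs) and cone cluster 21 (8.36 CPM, 11 UMIs). Progenitor cluster 35 followed (7.86 CPM, 13 UMIs). Pigment-marked cluster 83, with 155 cells below the size limit, had still higher Sfrp1 (217 CPM), Lef1 (31.8 CPM), Wnt5a (18.6 CPM) and Axin2 (14.6 CPM).

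Genotypes were compared within each type from TMM-scaled sums per library, with edgeR's quasi-likelihood test and p-values adjusted over all genes tested in that type. Members that passed edgeR's filter on low counts entered 35 tests per contrast: 10 in progenitors, 9 in neurogenic cells, 6 in ganglion cells and 5 each in horizontal-labelled cells and cones. The double null against the Bax null asks what the loss of Atoh7 goes with where Bax is absent. It called 16 of 35 (10 higher, 6 lower; median log2 difference 0.09), beside 43.7% of all genes tested. The Bax het Atoh7 null against the Bax null differs in both genes and called 18 of 35 (10 higher, 8 lower; median -0.09), beside 43%. Both contrasts use the same Bax null libraries, so they are not independent, and both shares lie near their background. Without TMM, the median over all genes in these contrasts shifted to between 0.47 and 0.64 (from between -0.00 and 0.04), and the calls became 20 higher and 2 lower in the first contrast and 17 higher and 3 lower in the second. Differences below are relative to the TMM scaling unless said otherwise.

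The double null against the Bax het Atoh7 null, the effect of Bax copy number without Atoh7, called 0 of 35 members by edgeR, with 3 at an unadjusted p under 0.05 and 0 by DESeq2. All genes were called at 1.86% there, from 2.01% in progenitors, 1.77% in neurogenic cells and 2.34% in ganglion cells to 1.61% in horizontal-labelled cells and 1.46% in cones. The median difference was 0.01, the smallest adjusted p was 0.139 (Fzd5 in progenitors, log2 -0.29 ± 0.08 SE), and differences ran from -1.06 (Fzd5 in cones) to 1.03 (Wls in progenitors).

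Lef1 fell in ganglion cells. Its scaled level was 9.51 and 11.6 CPM in the Bax null, 2.75 and 2.91 in the double null, and 2.86 and 2.62 in the Bax het Atoh7 null (78, 97, 8, 8, 6 and 8 UMIs). The Bax null libraries lay above all others. On the log2 scale Lef1 fell by 1.89 (SE 0.30, adjusted p = 0.000209) in the double null and by 1.94 (SE 0.32, adjusted p = 0.000273) in the Bax het Atoh7 null. Members called in ganglion cells numbered 4 of 6 (3 higher, 1 lower) in each contrast, beside 52.7% and 50% of all genes.

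The ganglion label was filled by different clusters in the genotypes: mainly clusters 9, 19, 44 and 92 in the Bax null, 62, 53, 46 and 63 in the double null, and 46, 53, 63 and 90 in the Bax het Atoh7 null. Summed ganglion markers in these cells were 10787 to 11324 CPM in the Bax null, 8395 to 10070 in the double null and 7690 to 8855 in the Bax het Atoh7 null. In the 5 ganglion clusters with at least 50 cells in every group, Lef1 had 38 UMIs in 897 Bax null cells (7.22 CPM), 7 in 1127 double null cells (2.91 CPM) and 6 in 838 Bax het Atoh7 null cells (2.57 CPM), and the Bax null was highest in 4 of the 5. Groups filled these clusters unequally, so the pooled values still mix cluster with genotype: clusters 9 and 100 held 438 and 210 of the Bax null cells. In cluster 90 the Bax null had 0 UMIs in 66 cells. There the double null had 1 UMI (2.18 CPM) and the Bax het Atoh7 null 2 (3.63 CPM).

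In neurogenic cells Lef1 also fell. Its scaled level was 10.5 and 9.84 CPM in the Bax null, 5.40 and 5.65 in the double null, and 5.72 and 6.96 in the Bax het Atoh7 null, again without overlap. The differences were -0.88 (SE 0.20, adjusted p = 0.00383) and -0.68 (SE 0.20, adjusted p = 0.0142); on plain library totals they were -0.29 (adjusted p = 0.229) and -0.16 (adjusted p = 0.501), so both calls rest on the TMM scaling. Counts thinned to equal depth left them at -0.66 (adjusted p = 0.0633) and -0.46 (adjusted p = 0.189). The second was also not called with replicate 1 of the Bax het Atoh7 null left out (adjusted p = 0.101), Bax null replicate 1 (0.0734) or Bax null replicate 2 (0.052), nor by DESeq2 (0.142). The neurogenic label was filled by partly different clusters, mainly 61, 134, 3 and 73 in the Bax null. In the double null they were 4, 16, 3 and 59, and in the Bax het Atoh7 null 16, 3, 4 and 34. Cluster 73 had the highest pooled Lef1 of the neurogenic clusters with at least 200 cells (20.2 CPM, median 5.93). It was 6.96% of neurogenic cells in the Bax null, 1.65% in the double null and 1.26% in the Bax het Atoh7 null. Its part in the fall was not tested.

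In progenitors Lef1 went the other way. The Bax null libraries had 9.13 and 8.14 scaled CPM, below the 11.4 and 11.8 of the double null and the 10.2 and 12.8 of the Bax het Atoh7 null. It rose by 0.42 (SE 0.13, adjusted p = 0.0224) and 0.40 (SE 0.13, adjusted p = 0.028), and DESeq2 called neither (adjusted p = 0.0671 and 0.0926). Both calls were lost without Bax null replicate 2 (adjusted p = 0.151 and 0.177). The first was also lost without double null replicate 2 (0.0579) or the shared-barcode cells (0.36, adjusted p = 0.0599), and the second with replicate 2 of the Bax het Atoh7 null left out (0.214) or Bax null replicate 1 (0.0535).

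Fzd5 fell in both progenitors and neurogenic cells. In neurogenic cells the Bax null libraries had 29.997 and 32.0 scaled CPM, the double null 14.2 and 14.9, and the Bax het Atoh7 null 15.0 and 13.4. The groups with and without Atoh7 did not overlap, and the differences were -1.10 (SE 0.13, adjusted p = 3.68e-05) and -1.13 (SE 0.13, adjusted p = 3.41e-05). In progenitors its scaled levels were 51.1 and 55.3 CPM, 30.5 and 29.95, and 38.7 and 35.4, in the same order, with differences of -0.82 (SE 0.08, adjusted p = 5.72e-05) and -0.52 (SE 0.08, adjusted p = 0.00068). On plain library totals the neurogenic calls held, while the progenitor values were -0.18 (adjusted p = 0.11) and 0.01 (adjusted p = 0.902). The neurogenic label called 4 of 9 members (1 higher, 3 lower) in each contrast, beside 47.3% and 47.1% of genes. Of its clusters, 61 and 134 had pooled Fzd5 levels of 38.9 and 40.1 CPM, beside a median of 14.1 over neurogenic clusters. They made up 8.56% and 8.24% of neurogenic cells in the Bax null. Their shares were 3.41% and 0.019% in the double null and 2.50% and 0.140% in the Bax het Atoh7 null. Their part in the neurogenic fall was not tested.

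Axin2, from few UMIs, fell in progenitors. The Bax null libraries held 68 and 60 UMIs (2.30 and 2.03 scaled CPM), the double null 26 and 21 (1.02 and 1.21) and the Bax het Atoh7 null 30 and 20 (1.38 and 1.03). No Atoh7 null library reached the Bax null range, and the differences were -0.97 (SE 0.25, adjusted p = 0.0089) and -0.83 (SE 0.24, adjusted p = 0.0177). On plain library totals they were -0.35 (adjusted p = 0.241) and -0.30 (adjusted p = 0.323), the second was -0.66 (adjusted p = 0.0823) without the ciliary-high clusters, and DESeq2 gave adjusted p = 0.0588 and 0.105. The first lost its call without Bax null replicate 1 (0.0685) or double null replicate 1 (0.0599), and the second with replicate 2 of the Bax het Atoh7 null left out (0.117), Bax null replicate 1 (0.112) or Bax null replicate 2 (0.0552). In progenitors 4 of 10 members were called in the double null (2 higher, 2 lower) and 6 of 10 in the Bax het Atoh7 null (2 higher, 4 lower), beside 53.9% and 53.1% of genes.

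Fzd1 and Wls passed only in the Bax het Atoh7 null, and the contrast between the Atoh7 null groups called neither. Fzd1 in progenitors was 8.42 and 9.43 scaled CPM in the Bax null, 7.09 and 7.55 in the double null and 6.44 and 5.89 in the Bax het Atoh7 null, with differences of -0.29 (adjusted p = 0.0764) and -0.53 (SE 0.13, adjusted p = 0.00681). The second was 0.00 (adjusted p = 0.978) on plain library totals, -0.33 (adjusted p = 0.0894) without the ciliary-high clusters and -0.45 (adjusted p = 0.0684) without Bax null replicate 2. Wls gave -1.50 (adjusted p = 0.0514) and -2.54 (SE 0.68, adjusted p = 0.0117), the latter at 0.0847 with replicate 2 of the Bax het Atoh7 null left out and 0.0837 without Bax null replicate 2, which held 62 of the 128 progenitor UMIs. Wnt5a in progenitors (-0.51, adjusted p = 0.0726, and -0.13, adjusted p = 0.63) and Fzd3 in all 5 types were not called.

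Dkk3 was the one member called in all 5 types, higher without Atoh7 in each. In cones it stood at 34.0 and 33.3 scaled CPM in the Bax null, 143 and 113 in the double null, and 130 and 147 in the Bax het Atoh7 null, and the groups with and without Atoh7 did not overlap. It rose there by 1.95 (SE 0.19, adjusted p = 1.44e-07) and 2.04 (SE 0.19, adjusted p = 7.02e-08). In ganglion cells, at 75.5 and 65.6 against 193, 172, 198 and 169 scaled CPM, it rose by 1.38 (SE 0.11) and 1.37 (SE 0.11). The rises were smaller in progenitors (0.78 and 0.81), neurogenic cells (0.81 and 0.77) and horizontal-labelled cells (0.81 and 0.74), and all 10 calls held in each alternative run for them.

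Sfrp2 changed in opposite directions by type. In neurogenic cells it fell by 0.59 (SE 0.13, adjusted p = 0.00273) and 0.74 (SE 0.13, adjusted p = 0.000673), from 871 and 1027 scaled CPM in the Bax null to 687 and 569 in the double null and 582 and 550 in the Bax het Atoh7 null. On plain library totals those values were -0.01 (adjusted p = 0.97) and -0.23 (adjusted p = 0.121), and without Bax null replicate 2 the first was -0.47 (adjusted p = 0.0573). In the more differentiated types it rose: in cones by 0.97 (adjusted p = 4.81e-05) and 1.07 (adjusted p = 1.8e-05; 159 and 170 scaled CPM against 366, 273, 352 and 336), in ganglion cells by 1.16 and 1.06 (155 and 99.1 against 324, 244, 279 and 250) and in horizontal-labelled cells by 0.91 and 0.59 (208 and 245 against 441, 410, 277 and 400). Progenitors held 2070 and 1985 scaled CPM in the Bax null and 2305 to 2561 in the other 4 libraries, and neither contrast was called there (0.26, adjusted p = 0.086, and 0.29, adjusted p = 0.0637). The unequal shares of clusters 61 and 134, given for Fzd5, applied to the neurogenic values of Sfrp2 too.

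Part of these calls rested on cells whose barcodes the double null libraries shared. Without them the double null values were 0.70 (adjusted p = 0.126) for Sfrp2 in ganglion cells and 0.44 (adjusted p = 0.184) in horizontal-labelled cells, while the cone call held (0.65, adjusted p = 0.0475). In horizontal-labelled cells the other contrast also lost its call with replicate 2 of the Bax het Atoh7 null left out (0.27, adjusted p = 0.292), Bax null replicate 1 (0.47, adjusted p = 0.131) or the shared-barcode cells (0.59, adjusted p = 0.0638), and DESeq2 did not call it (adjusted p = 0.0662). Horizontal-labelled cells and cones each gave 2 of 5 members called, both higher, in each contrast. The share of all genes called was 29.2% and 30.2% in horizontal-labelled cells and 28.1% and 27.5% in cones.

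Sfrp1 was called in ganglion cells alone, where it rose by 0.95 (SE 0.15, adjusted p = 0.000168) and 0.78 (SE 0.16, adjusted p = 0.00118). Its scaled levels there were 17.2 and 18.7 CPM in the Bax null, 38.8 and 30.2 in the double null and 31.5 and 30.4 in the Bax het Atoh7 null, without overlap. Pooled Sfrp1 was 52.6 and 41.9 CPM in ganglion clusters 46 and 63, beside a median of 22.1 over ganglion clusters of at least 200 cells. These 2 clusters were 1.02% and 3.26% of ganglion cells in the Bax null. Their shares were 15.1% and 12.4% in the double null and 20.8% and 13.8% in the Bax het Atoh7 null. The part of unequal clusters in the ganglion rises of Sfrp1, Sfrp2 and Dkk3 was not tested. In progenitors the scaled levels were 55.8 and 62.6 CPM in the Bax null, 64.7 and 63.5 in the double null and 54.6 and 51.7 in the Bax het Atoh7 null. The groups did not overlap there, but no contrast was called (0.11, adjusted p = 0.276, and -0.15, adjusted p = 0.153, against the Bax null, and 0.27, adjusted p = 0.184, between the Atoh7 null groups).

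**Figure D3:**
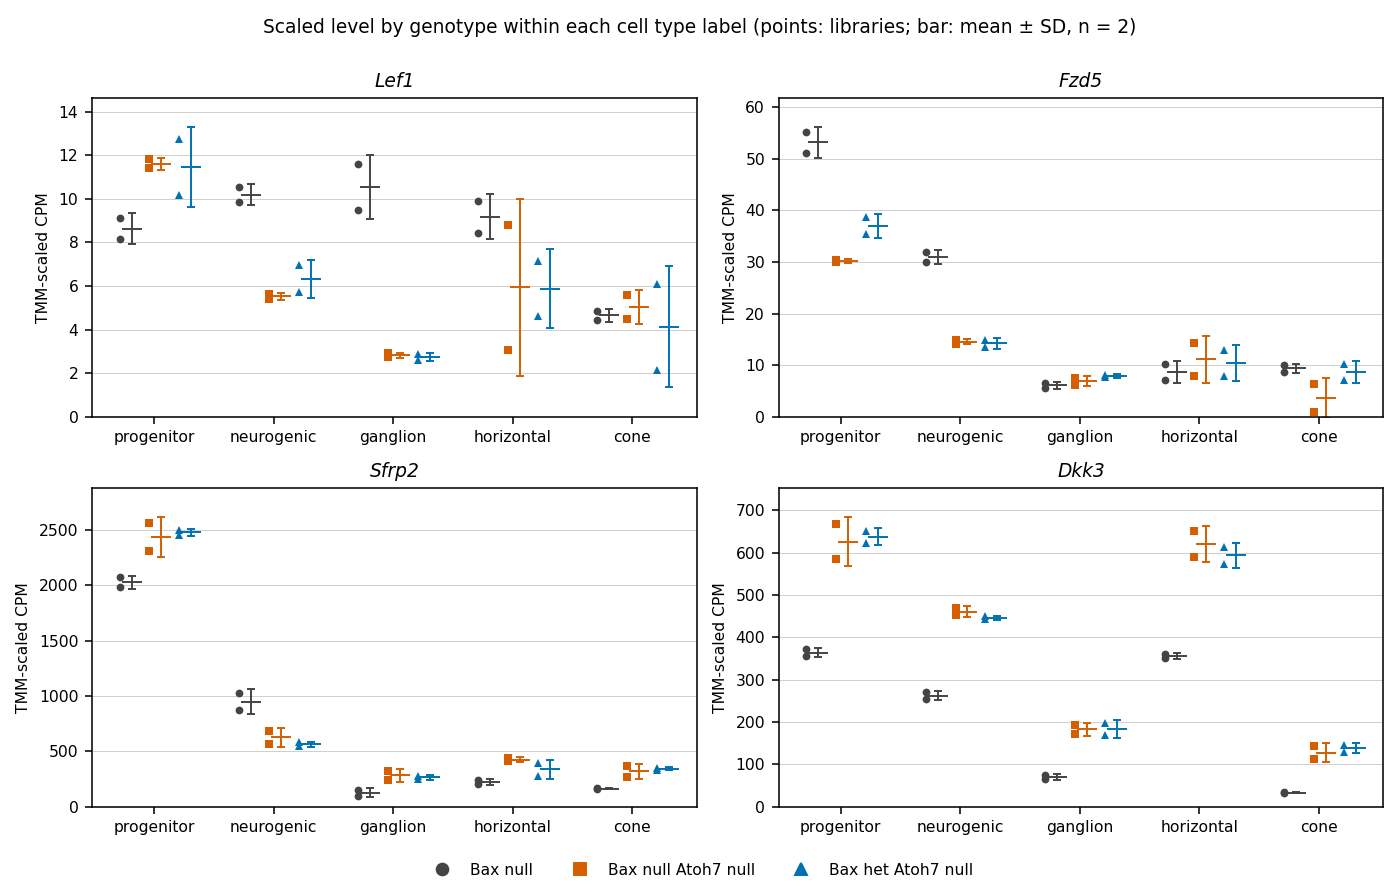
TMM-scaled CPM (vertical axes, from 0) of Lef1, Fzd5, Sfrp2 and Dkk3 by cell type label (horizontal axes) and genotype, with points for libraries and bars for the mean ± SD of 2 libraries; the lower end of the Fzd5 bar of double null cones is cut at 0. Lef1 in ganglion cells is 9.51 and 11.6 in the Bax null against 2.62 to 2.91 in the other 4 libraries, and Dkk3 is lower in the Bax null in all 5 types.

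Since the Bax null libraries differed from the rest in all types, each type was also compared with the progenitors of its own library. The test was the interaction of type and genotype, with library as a block. The progenitor label was itself filled by different clusters: mainly 5, 10, 60 and 14 in the Bax null. In the double null they were 6, 30, 17 and 43, and in the Bax het Atoh7 null 6, 17, 22 and 11. Cluster 5 was 8.05% of progenitors in the Bax null, 0.368% in the double null and 0.276% in the Bax het Atoh7 null. Pooled Dkk3 was 363 CPM in cluster 5 and 736 in cluster 6. The part of these clusters in the progenitor and within-library values was not tested. A value above 0 means that the type gained relative to progenitors. The double null against the Bax null called 11 of 39 (7 higher, 4 lower; median 0.03), beside 7.87% of all genes, and the Bax het Atoh7 null against the Bax null 12 of 39 (8 higher, 4 lower), beside 7.96%. The contrast between the Atoh7 null groups called 0 of 39 by edgeR, beside 0.0432% of genes, with 4 at an unadjusted p under 0.05 and a smallest adjusted p of 0.105 (Sfrp2 in horizontal-labelled cells, 0.36). By type that last background was 0% in neurogenic cells, 0.102% in ganglion cells, 0.0536% in horizontal-labelled cells and 0.0152% in cones. Ganglion cells held 5 of 10 members called in each of the first 2 contrasts, beside 15.7% and 15.2% of genes, and neurogenic cells 3 and 4 of 10, beside 7.46% and 8.35%. Cones held 2 of 9 in each, beside 4.91% and 5.3%, and horizontal-labelled cells 1 of 10 in each, beside 3.09% and 2.65%. On plain library totals all 11 of the first calls and 11 of the 12 second calls held (Sfrp2 in horizontal-labelled cells was 0.20, adjusted p = 0.221). DESeq2 was not run for this model.

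Lef1 fell relative to progenitors. In ganglion cells the difference was -2.30 (SE 0.33, adjusted p = 7.14e-07) in the double null and -2.38 (SE 0.34, adjusted p = 8.78e-07) in the Bax het Atoh7 null. Its ganglion level was 106% to 144% of the progenitor level in the Bax null, 24.1% to 24.6% in the double null and 20.2% to 27.8% in the Bax het Atoh7 null. In neurogenic cells it lost 1.29 and 1.08, from 117% to 123% of the progenitor level to 46.6% to 47.3% and 54.2% to 56.4%.

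Sfrp2 fell in neurogenic cells relative to progenitors, with -0.83 (SE 0.07, adjusted p = 4.58e-11) and -1.02 (SE 0.07, adjusted p = 1.54e-13). Neurogenic cells held 42.7% to 52.5% of the progenitor level in the Bax null, and 21.6% to 29.8% and 21.9% to 23.8% in the other groups. Clusters 61 and 134, a larger part of the neurogenic label in the Bax null, had pooled Sfrp2 levels of 1448 and 1630 CPM. The median over neurogenic clusters was 445 CPM, and the part of these 2 clusters was not tested. Sfrp2 gained 0.94 and 0.78 in ganglion cells, 0.81 and 0.84 in cones, and 0.70 and 0.34 in horizontal-labelled cells. The 0.34 lost its call with replicate 2 of the Bax het Atoh7 null left out (0.05, adjusted p = 0.942) or Bax null replicate 1 (0.21, adjusted p = 0.66), and was 0.33 (adjusted p = 0.488) without the shared-barcode cells. Dkk3 gained 0.62 and 0.56 in ganglion cells and 1.27 and 1.30 in cones, and was not called in its other types. Sfrp1 gained 0.86 and 0.95 in ganglion cells.

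Fzd5 gained 1.02 and 0.92 in ganglion cells relative to progenitors, from 16 to 54 UMIs per library there, and both calls rested on single libraries: adjusted p was 0.101 and 0.158 without Bax null replicate 2, 0.217 for the first without double null replicate 1, and 0.0858 and 0.334 for the second with replicate 1 of the Bax het Atoh7 null left out or 2. In neurogenic cells it was -0.26 (adjusted p = 0.265) and -0.59 (SE 0.13, adjusted p = 0.00179), the second at -0.42 (adjusted p = 0.182) in thinned counts. Sfrp1 in neurogenic cells was -0.37 (adjusted p = 0.0341) and -0.12 (adjusted p = 0.615), and the first lost its call without the ciliary-high clusters (-0.17, adjusted p = 0.456), Bax null replicate 1 (0.132), Bax null replicate 2 (0.145) or double null replicate 2 (0.268), and in thinned counts (0.0765). Wls in neurogenic cells was 1.26 (adjusted p = 0.583) and 3.40 (adjusted p = 0.0149), the second from 1 to 8 UMIs per library and at 1.96 (adjusted p = 0.394) without those clusters, 2.50 (0.299) with replicate 2 of the Bax het Atoh7 null left out and 1.98 (0.359) without Bax null replicate 2.

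**Figure D4:**
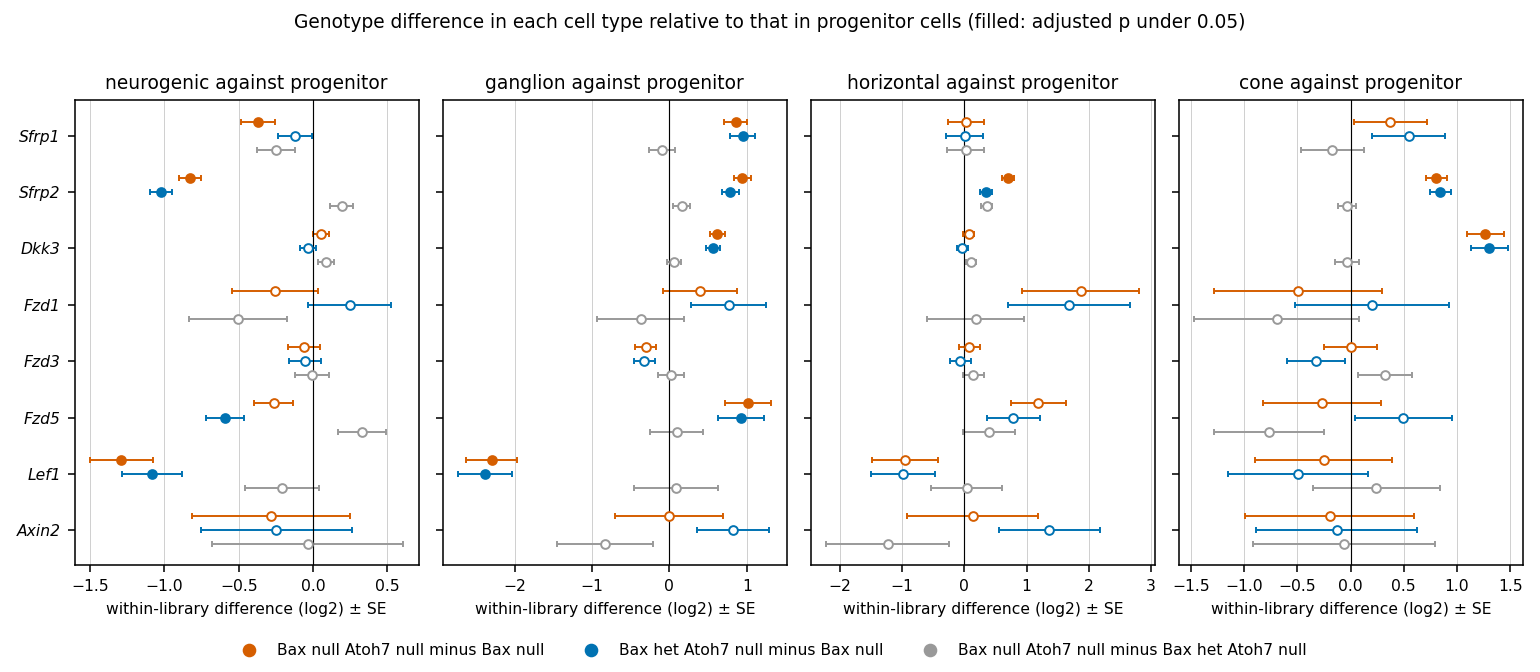
Difference between genotypes in each type relative to that in progenitors (horizontal axes, log2, ± SE) for 8 genes (vertical axis), with a colour per contrast and filled points for an adjusted p under 0.05. Lef1 in ganglion cells lies at -2.30 and -2.38, Sfrp2 and Dkk3 lie above 0 in ganglion cells and cones, and the grey contrast between the Atoh7 null groups has no filled point.

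Progenitor markers were also followed in ganglion cells, beside Sfrp2, Dkk3, Sfrp1 and Fzd5. As a share of their level in the progenitors of the same library, Sox2, Lhx2, Hes1, Fgf15 and Ccnd1 stood at 4.22% to 12.3% in the Bax null, 7.92% to 27.5% in the double null and 7.18% to 23.8% in the Bax het Atoh7 null. The other markers did not follow: Hes5 was 51.2% to 53.8%, 30.1% to 40.1% and 25.6% to 39.4%, and Pax6, which ganglion cells also express, was 159% to 182%. Sfrp2 in the same cells was 5.05% to 7.66%, 9.32% to 14.3% and 9.83% to 11.2%. The sum of the 7 markers in ganglion cells had an order that turned with the scaling. In plain CPM it was 1721 to 1799 in the Bax null, 1821 to 2059.7 in the double null and 2219.6 to 2297 in the Bax het Atoh7 null, and after TMM scaling it was 2240.5 to 2298, 1508 to 1777 and 2046 to 2098. In cones the plain sums were 979 to 1096 CPM, 1245 to 1518 and 1256 to 1484, and the scaled sums, which overlapped, were 1233 to 1391, 1036 to 1345 and 1150.1 to 1376. In horizontal-labelled cells the Bax null was highest on both scales, at 3921 to 4109 and 4895 to 5175. Their part in these results was not tested. Lef1 in ganglion cells moved opposite to the share of the 5 markers and to the plain sum of the 7. It moved in the same direction as the share of Hes5 and the TMM-scaled sum.

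Leaving out the shared-barcode cells ended several of these calls in the double null: Sfrp2 in ganglion cells (0.44, adjusted p = 0.305), horizontal-labelled cells (0.20, adjusted p = 0.758) and cones (0.47, adjusted p = 0.0864), Fzd5 in ganglion cells (0.52, adjusted p = 0.437) and Sfrp1 in neurogenic cells (-0.35, adjusted p = 0.0843). The calls for Lef1, Dkk3, Sfrp1 in ganglion cells and Sfrp2 in neurogenic cells held.

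The rest of the pathway gives the setting for these 10 genes. Of 113 other Wnt pathway genes with a row, 81 were tested in progenitors, and the double null against the Bax null called 45 (18 higher, 27 lower; median -0.12), beside 53.9% of all genes. Neurogenic cells gave 35 of 68 (12 higher, 23 lower), ganglion cells 29 of 53 (15 and 14), horizontal-labelled cells 17 of 54 (11 and 6) and cones 15 of 52 (11 and 4), beside 47.3%, 52.7%, 29.2% and 28.1% of all genes. The Bax het Atoh7 null against the Bax null gave 45 of 81, 29 of 68, 31 of 53, 13 of 54 and 13 of 52, beside 53.1%, 47.1%, 50%, 30.2% and 27.5%. Between the Atoh7 null groups 1 of 81 was called in progenitors, the polarity gene Vangl2 (-0.41, adjusted p = 0.0443), and 1 of 53 in ganglion cells, Tle4 (-0.48, adjusted p = 0.0341), beside 2.01% and 2.34%.

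By role in progenitors, the double null contrast called 2 of 6 ligands, 5 of 6 secretion genes, 3 of 6 secreted modulators, 9 of 16 receptors, 0 of 2 receptor turnover genes, 13 of 20 relay genes, 7 of 12 nuclear factors (1 higher, 6 lower), 4 of 11 response genes and 4 of 7 polarity genes (all 4 lower). Wnt5b, a ligand related to Wnt5a, rose by 0.65 in progenitors and by 0.67 in neurogenic cells. The receptor Fzd2 rose by 0.67 in progenitors and 1.14 in ganglion cells, opposite to Fzd5 in progenitors, and the kinase Gsk3b rose by 0.68. On the TMM scale Bcl9, a beta-catenin cofactor, fell by 1.02, Bambi, a response gene, by 0.67 and the inhibitor Dkk1 by 0.94. Plain progenitor levels over the 6 libraries were 45.2 to 69.4 CPM for Bcl9, 22.4 to 27.8 for Bambi and 2.05 to 4.41 for Dkk1. The falls of Bcl9 and Bambi exceed what these plain ranges allow, so they rest at least partly on the TMM scaling. The response genes did not share 1 direction across types: Nkd1 was -0.12 (adjusted p = 0.283) in progenitors and rose by 0.65 in ganglion cells, and Ccnd1, also a progenitor marker, was -0.24 (adjusted p = 0.19) and rose by 1.39.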

How the data were processed

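Single-cell RNA of mouse retina (10x Genomics 3' v2) was measured in 6 libraries, 2 per genotype group. The deposited matrix holds raw UMI counts per gene and cell from the authors; Cell Ranger 1.2.1 and mm10 are named in the submitters' processing notes, and filters on cells are not given in the sources used here. Cell types and clusters are the authors' deposited labels, and 2 further libraries in the deposited tables (26078 cells) were not used. No doublet caller was run; an alternative left out the 5% of cells with the most UMIs. The matrix sum equalled the deposited total count in all 67050 cells.

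Counts were summed per library and type and tested in R 4.3.3 with edgeR 4.0.16 (filterByExpr, TMM, quasi-likelihood test, group as the only term, all 6 libraries), with Benjamini-Hochberg adjustment over all genes tested and a threshold of 0.05. SE is the log2 difference divided by the square root of F. DESeq2 1.42.0 was an alternative. Members are described in every type and contrast, pathway genes by counts with at most 3 genes per role by highest mean level, and like genes among those with at least 20 CPM in a type. Both tests were first tested on simulated data. A further progenitor marker is not reported here. Member and gene lists were chosen with earlier results of these data known. Gene positions are from GENCODE M21 (GRCm38) and promoters from RefSeq.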

Additional observations from a re-analysis of the deposited data

Results flagged for a closer look

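The genotype difference of 6 genes (Sfrp1, Sfrp2, Dkk3, Fzd5, Lef1 and Wls) depended on the cell type, by the interaction of type and genotype against progenitors (edgeR, adjusted p under 0.05; log2 values). For the double null against the Bax null, ganglion cells gave Lef1 -2.30, Fzd5 1.02, Sfrp2 0.94, Sfrp1 0.86 and Dkk3 0.62. Neurogenic cells gave Lef1 -1.29, Sfrp2 -0.83 and Sfrp1 -0.37, cones gave Dkk3 1.27 and Sfrp2 0.81, and horizontal-labelled cells gave Sfrp2 0.70. For the Bax het Atoh7 null against the same Bax null libraries, ganglion cells gave Lef1 -2.38, Sfrp1 0.95, Fzd5 0.92, Sfrp2 0.78 and Dkk3 0.56. Neurogenic cells gave Wls 3.40, Lef1 -1.08, Sfrp2 -1.02 and Fzd5 -0.59. Cones gave Dkk3 1.30 and Sfrp2 0.84, and horizontal-labelled cells gave Sfrp2 0.34. Several double null calls were lost without the shared-barcode cells. These were Sfrp2 in ganglion cells (adjusted p = 0.305), horizontal-labelled cells (0.758) and cones (0.0864), Fzd5 in ganglion cells (0.437) and Sfrp1 in neurogenic cells (0.0843). The Fzd5 value of -0.59 in neurogenic cells was -0.42 (adjusted p = 0.182) in thinned counts. Some of the calls in either contrast rest on single libraries. Without Bax null replicate 2, Wls was 1.98 (adjusted p = 0.359) and both Fzd5 ganglion calls were lost (0.101 and 0.158), and without Bax het Atoh7 null replicate 2 the Sfrp2 value of 0.34 was 0.05 (0.942). The Sfrp1 call in neurogenic cells was likewise lost without Bax null replicate 1 (0.132), Bax null replicate 2 (0.145) or double null replicate 2 (0.268), and Wls was 1.96 (0.394) without the ciliary-high clusters.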

How the results depend on the processing

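For the 57 gene-by-type differences that were called (others, and calls gained, were followed only as counts), 807 values under an alternative kept their direction and their side of the threshold, 66 kept only the direction and 2 reversed: on library totals without TMM, Fzd1 and Fzd5 in progenitors (Bax het Atoh7 null against Bax null) were 0.0045 and 0.015. Leaving out each library in turn gave 15 to 20 member calls for the double null against the Bax null (16 with all libraries), 13 to 20 for the Bax het Atoh7 null against the Bax null (18) and 0 to 0 between the Atoh7 null groups. The within-library calls became 9 to 11 (11), 9 to 12 (12) and 0 to 3 (0), the 3 being Sfrp2 in neurogenic, ganglion and horizontal-labelled cells without double null replicate 2, with 1 (Sfrp2, horizontal-labelled) without Bax het Atoh7 null replicate 2. Within-library calls for the double null fell to 7 without the shared-barcode cells, and between the Atoh7 null groups rose to 1 without TMM and to 1 with no filter on low counts. With the replicate block the counts were 18, 18 and 0, and 11, 12 and 0 within libraries. The numbers were not taken as pairs, since over 5612 genes replicate differences correlated at -0.13 and 0.02 between the Bax null and the double null or Bax het Atoh7 null, and at 0.37 only between the Atoh7 null groups. Wls outside progenitors (0 to 8 UMIs per library) and, in cones, Axin2 (2 to 8) and Wnt5a (0 to 4) were too few for moderate differences to be detectable. Scaling to totals without TMM and leaving out shared-barcode cells or ciliary-high clusters were chosen after seeing the data.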
